A study of Mus musculus with 31 samples.

Results

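How far the drug response of a melanoma depends on the glucocorticoid receptor (GR) of its cancer cells is read here from all 20 tumor libraries among the 31 samples of the series, 5 tumors in each of 4 groups. The libraries were chosen by their group and not by a measured value. The tumors came from 20967, a mouse melanoma line from a C57BL/6 background with an activated *Nras* allele driven in melanocytes, implanted into the skin of wild-type C57BL/6 mice. Parental control and parental GC tumors carried the unedited line, and GRKO control and GRKO GC tumors carried a derivative whose *Nr3c1* gene had been edited with CRISPR/Cas9. GC tumors received clobetasol propionate, a potent glucocorticoid, as a 0.05% ointment 3 times weekly, and control tumors received Cetraben cream, a plain emollient. GRKO cells are 1 clone, checked for GR protein by western blot by the authors, so that any other difference between this clone and the parental line cannot be told apart from the loss of GR. Every mouse kept GR in its own immune, vascular and skin cells, and the labels give neither the age of the mice nor the day of collection.

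RNA of whole tumors was read from its 3′ ends with the QuantSeq FWD kit on an Illumina NovaSeq, and between 15528066 and 26386770 reads per tumor were counted on genes. In whole tumors, fewer cells of a type and less RNA per cell cannot be told apart. Levels are given as CPM, the share of a library's reads that fell on a gene, scaled with edgeR's TMM factors, which adjust for a few genes taking many reads. Reads from 3′ ends compare levels of different genes only roughly, and most abundant below means having the most reads. Differences carry their standard error (SE). At these depths 3 counts equal 0.112 to 0.220 CPM, which covers counting error only.

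GR is a nuclear receptor that waits in the cytoplasm with heat-shock chaperones, binds glucocorticoids, and enters the nucleus to raise or lower the transcription of genes near its binding sites. Metallothioneins, clock genes and feedback regulators are among its direct targets, and it also lowers the output of inflammatory factors such as NF-κB and AP-1. In tumors the drug reaches cancer cells and host cells alike, and a response that needs GR in the cancer cells is one that parental tumors show and GRKO tumors lack.

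For each gene, the drug response of GRKO tumors was subtracted from that of parental tumors on the log2 scale, (parental GC minus parental control) minus (GRKO GC minus GRKO control). A positive value means that the drug moved the gene further up, or less far down, in parental tumors. A gene was called when its Benjamini-Hochberg adjusted p from edgeR was under 0.05 and its ratio of ratios was at least 1.5 in either direction. These p-values measure the spread between separately labelled tumors.

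*Nr3c1*, the gene that encodes GR and was edited in GRKO cells, lies on the minus strand at chr18:39410545-39519421 of GRCm38 and is listed as ENSMUSG00000024431. Parental control tumors had 63.4, 57.1, 44.9, 55.6 and 52.2 CPM and parental GC tumors 53.4, 24.4, 48.2, 37.3 and 49.8 CPM. GRKO control tumors had 20.7, 27.3, 31.4, 31.8 and 23.5 CPM and GRKO GC tumors 47.9, 21.7, 58.0, 32.5 and 49.4 CPM. GRKO control tumors had the lowest mean and were below all parental control tumors, but overlapped both GC groups. The difference of differences was -0.99 (SE 0.34, edgeR adjusted p 0.127) and was not called. Reads of transcript ends count transcripts whether or not they encode a working receptor, so these values check nothing about the knockout.

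The partners of GR were read next: chaperones that hold it, and proteins it recruits to DNA. Of 18 GR and coregulator genes listed, 16 were tested and edgeR called 0. At an unadjusted p under 0.05, 4 were positive and 3 negative (9.88% and 10.2% of all genes tested), and DESeq2, which called 4.92% of all genes, called 2 higher and 0 lower. *Hsp90ab1*, the chaperone with the most reads, had means of 2900.3 ± 511, 4224 ± 1266, 2981 ± 309 and 2872 ± 654 CPM (SD, n = 5) in parental control, parental GC, GRKO control and GRKO GC tumors, an order kept for every set of 4 means below. Its value was 0.60 (SE 0.30, edgeR adjusted p 0.272). *Nrip1*, a corepressor picked after its values were seen, had means of 135, 303, 151 and 154 CPM and a value of 1.13 (edgeR adjusted p 0.0559).

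One group of libraries stood apart. GRKO control tumors had TMM factors of 0.753, 0.816, 0.919, 1.10 and 0.819, against 0.914 to 1.13 in the other 15 tumors. After every library was drawn down to 15528066 reads, they held 13405, 14794, 15145, 16787 and 14278 detected genes, against 15167 to 16920 in the others. Their 100 most abundant genes took 37.6, 34.0, 31.4, 24.3 and 38.4 percent of reads, against 23.7 to 29.9 percent elsewhere. GRKO control 4 was inside the range of the other groups on all of these measures, and the other GRKO control tumors were outside it on each except the TMM factor of GRKO control 3, 0.919, which lay just inside. GRKO control 1, 2 and 5, with TMM factors under 0.85, are the low-TMM tumors below. The depth covariate is each tumor's number of genes at equal depth, and the skin covariate its summed keratinocyte markers.

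**Figure D1:**
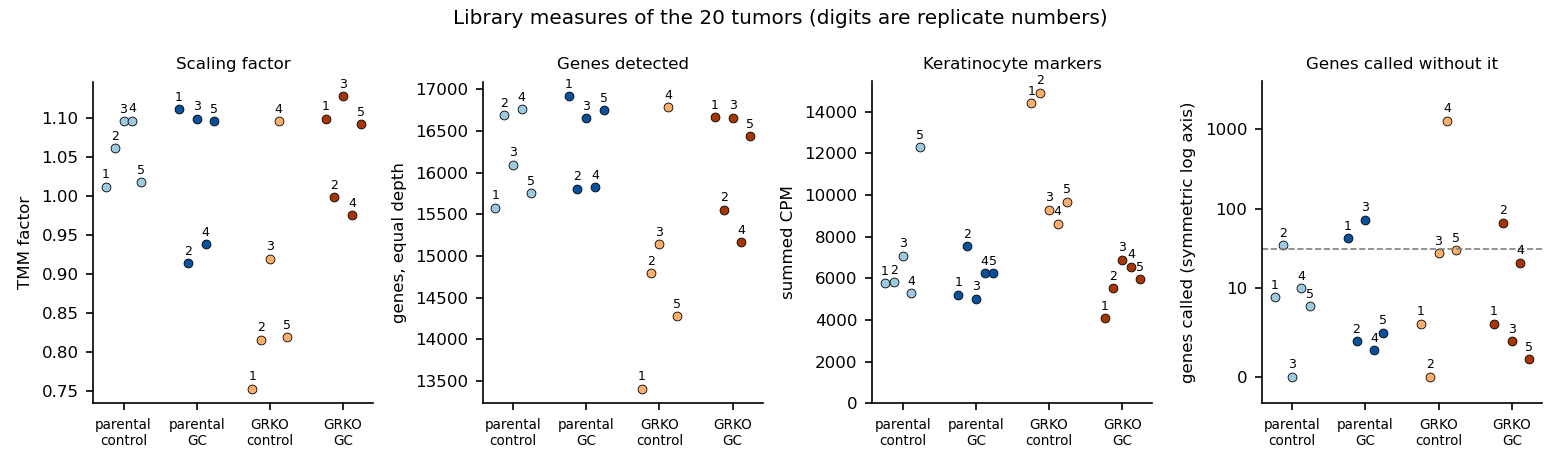
TMM factor, genes detected at equal depth, summed CPM of epidermal keratinocyte markers, and genes called when each tumor is left out (symmetric log axis, dashed line at 31 genes), by group, with the digit of each tumor as its mark. GRKO control 1, 2 and 5 have the lowest TMM factors, GRKO control 1, 2, 3 and 5 have the fewest genes, all GRKO control tumors are above the others in the third panel except parental control 5, and leaving out GRKO control 4 gave 1284 genes.

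The melanoma label was checked against 18 melanocyte-lineage markers. Pigment genes had few reads. *Dct*, an enzyme of melanin synthesis, had means of 4.55, 1.35, 2.70 and 2.21 CPM. *Pmel*, a protein of the pigment granule, had 3.01, 0.860, 2.91 and 1.79 CPM, and *Mlana* 0.580, 0.0632, 0.0154 and 0.138 CPM. *Sox10*, a lineage transcription factor, had means of 1.90, 1.61, 1.13 and 1.41 CPM, and *Mitf*, its target and the master regulator of pigment genes, 32.5, 42.1, 26.1 and 33.3 CPM. Most of the summed level came from *Sox9*, with means of 746 ± 127, 712 ± 126, 724 ± 146 and 674 ± 107 CPM, and from *Axl*, a receptor kinase of undifferentiated melanoma, with 493, 701, 651 and 598 CPM. Both are also made by other cells of skin and stroma. *Axl*, *Mitf* and the pigment genes were picked after their values were seen. The sum was 1379, 1532, 1054, 1171 and 1512 CPM in parental control and 1178, 1918, 1296, 1568 and 1654 CPM in parental GC tumors. In GRKO tumors it was 1657, 1462, 1252, 1303 and 1598 CPM with control and 1317, 1430.3, 1466, 1464 and 1046 CPM with GC. All 4 groups overlapped, and the sum's difference of differences was 0.30 (SD between tumors 0.23). Of the listed genes, 1 was at 0 in all tumors and 7 in all cultures of the line, where the sum was 1016 to 1613 CPM. Of 14 melanocyte-lineage genes tested, edgeR called 0, DESeq2 0 higher and 0 lower, and 2 were positive and 1 negative at an unadjusted p under 0.05 (all genes 9.88% and 10.2%). Their median was 0.10 (from -0.04 without parental GC 5 to 0.29 without parental GC 4; 0.30 without the low-TMM tumors).

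Among 15919 genes tested, 31 (0.195%) were called, 20 (0.126%) with a higher and 11 (0.0691%) with a lower drug response in parental tumors. The higher genes included the glucocorticoid-induced *Mt1*, *Gadd45g* and *Ccdc3*, the epithelial genes *Trim29* and *Cdsn*, and the muscle gene *Tnnc2*. The lower genes included the stress gene *Gadd45a* and the transcriptional repressors *Hes1* and *Klf10*. Values ran from 1.30 to 3.78 among higher genes, and from -3.75 to -1.33 among lower genes, on the log2 scale. In 29 of the 31 the means of the drug groups moved in opposite directions in the 2 genotypes, and in 20 the larger change was the one in GRKO tumors. The highest mean among higher genes, or the lowest among lower genes, was that of GRKO control tumors in 18 of the 31 and of parental GC tumors in the other 13. At an unadjusted p under 0.05 there were 3192 genes (20.1%), 1573 (9.88%) positive and 1619 (10.2%) negative. DESeq2 called 784 genes (4.92%), all 31 among them. It gave no adjusted p to 4632 of the 15919 genes, which could not be called but are counted in that share. Over all genes tested, the median value was -0.04, with 7669 positive (48.2%) and 8250 negative values. Counts in each gene list are to be read beside these shares over all genes.

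The count of 31 rested on single tumors. Without parental control 3, edgeR called 0 genes (2643 at an unadjusted p under 0.05, smallest adjusted p 0.0517), and without GRKO control 2 also 0 (2624, smallest adjusted p 0.0529), and DESeq2 was not run on these subsets. Without GRKO control 4 it called 1284 genes, 593 higher and 691 lower, all 31 among them. Other tumors whose removal lowered the count were parental control 1, 4 and 5 (to 9, 10 and 8 genes), parental GC 2, 4 and 5 (to 4, 3 and 5), GRKO control 1, 3 and 5 (to 6, 28 and 30) and GRKO GC 1, 3, 4 and 5 (to 6, 4, 21 and 2). Leaving out parental control 2, parental GC 1, parental GC 3 or GRKO GC 2 raised it to 35, 43, 73 and 67 genes. The cause was not tested. Each of the 31 was called in 4 to 18 of the 20 fits, *Sult5a1* and *Gadd45a* in 18, *Tnnc2* in 17 and *Mt1* in 16. Without the 3 low-TMM tumors edgeR called 0 genes (1335, or 8.47%, at an unadjusted p under 0.05, smallest adjusted p 0.121).

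Among established GR targets more values were positive than negative, and no test was run against all genes. Of 29 GR target genes tested, edgeR called 2 higher (0.126% of all genes) and 0 lower (0.0691%). At an unadjusted p under 0.05, 12 were positive and 4 negative. DESeq2 called 6 higher and 0 lower (4.92% of all genes either way). Their median was 0.57 (from 0.37 without GRKO control 2 to 0.60 without GRKO GC 2), beside -0.04 over all genes. Values were positive in 20 and negative in 9, against 48.2% positive over all genes. Of all genes, 9.88% were positive and 10.2% negative at an unadjusted p under 0.05. The called genes were *Mt1* and *Gadd45g*.

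*Mt1* encodes a metallothionein, a small protein that binds zinc and copper and is induced by metals and by GR. It is listed as ENSMUSG00000031765 on the plus strand at chr8:94179082-94180327, and no annotated gene overlaps it. *Mt1* read 757, 732, 629.6, 666 and 783 CPM in parental control tumors and 1802, 2883, 2100.4, 3315 and 2370.3 CPM in parental GC tumors. With GRKO cells it read 1221, 1401, 1014, 819.6 and 791 CPM in control and 1003, 1397, 603, 1147 and 753 CPM in GC tumors. All 5 parental GC tumors were above the other 15, whereas GRKO control and GRKO GC tumors overlapped and GRKO control tumors were all above parental control tumors. The value was 1.90 (SE 0.32, edgeR adjusted p 0.0223). Its call ended without parental control 3, parental GC 4, GRKO control 2 and GRKO GC 5, with edgeR adjusted p-values from 0.0522 to 0.0746, while the value stayed between 1.77 and 2.07. Without the low-TMM tumors it was 1.73 (edgeR adjusted p 0.141).

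*Gadd45g* encodes a stress-induced growth-arrest protein, and lies on the plus strand at chr13:51846678-51848468 (ENSMUSG00000021453). In parental tumors, *Gadd45g* read 31.0, 38.0, 28.9, 30.2 and 25.8 CPM with control and 80.6, 108, 78.8, 86.9 and 75.6 CPM with GC. In GRKO tumors it read 31.7, 46.0, 39.8, 60.9 and 47.4 CPM with control and 36.2, 67.9, 42.1, 40.5 and 51.0 CPM with GC. The 5 parental GC tumors again lay above the other 15, and the GRKO groups overlapped. The difference of differences was 1.41 (SE 0.28, edgeR adjusted p 0.0375), and 1.60 without the low-TMM tumors (adjusted p = 0.135). It was called in 8 of 20 fits and lost without parental control 1, 3, 4 and 5, parental GC 2, 4 and 5, GRKO control 2 and GRKO GC 1, 3, 4 and 5, with edgeR adjusted p-values from 0.0536 to 0.0886.

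Other GR targets were measured with their own values. *Tsc22d3*, which encodes the anti-inflammatory protein GILZ, had 88.5, 42.1, 72.4, 87.2 and 68.7 CPM in parental control, 454, 181, 372, 346 and 460.0 CPM in parental GC, 60.8, 45.4, 71.5, 89.1 and 62.3 CPM in GRKO control and 249.8, 247, 206, 170.0 and 249.8 CPM in GRKO GC tumors. Every GC tumor of either genotype was above every control tumor, and the difference of differences was 0.57 (SE 0.34, edgeR adjusted p 0.347). *Per1*, a clock gene with GR sites, had 26.6, 17.1, 17.5, 16.9 and 17.3 CPM and 85.0, 61.5, 112, 69.8 and 109 CPM in parental control and GC tumors, and 12.9, 9.68, 8.40, 18.7 and 26.2 CPM and 31.0, 32.6, 34.2, 45.9 and 41.6 CPM in GRKO tumors. Its GC tumors were also all above its control tumors, and the difference of differences was 0.91 (SE 0.37, edgeR adjusted p 0.179). *Sgk1*, a kinase that regulates ion transport, had means of 103 ± 31.0, 249 ± 43.2, 90.2 ± 12.1 and 138 ± 35.1 CPM and a value of 0.66 (SE 0.30, edgeR adjusted p 0.222). For *Klf9*, a repressor that feeds back on GR signalling, the means were 96.9 ± 22.8, 276 ± 84.4, 64.1 ± 29.3 and 152 ± 35.1 CPM and the value 0.27 (SE 0.40, edgeR adjusted p 0.743). *Zbtb16*, a transcription factor of low level, had means of 1.84 ± 1.29, 10.7 ± 2.94, 1.71 ± 1.97 and 4.25 ± 2.82 CPM and a value of 1.24 (SE 1.16, edgeR adjusted p 0.567). With 1 tumor left out, the *Zbtb16* value ran from 0.37 to 1.74. None of these was called by edgeR or DESeq2.

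A few targets pointed the other way. *Fkbp5*, a co-chaperone that dampens GR, had 190.1, 38.6, 207, 91.4 and 193 CPM in parental GC and 127, 76.5, 119.7, 59.7 and 133 CPM in GRKO GC tumors, against 54.9 to 86.3 CPM in parental control and 14.2 to 35.9 CPM in GRKO control tumors. Its value was -1.01 (SE 0.48, edgeR adjusted p 0.243). The *Fkbp5* value was -0.63 with the depth covariate, -0.74 with the skin covariate and -0.50 without the low-TMM tumors (edgeR adjusted p 0.815). Parental GC 2 was below all parental control tumors, and GRKO GC tumors were all above GRKO control tumors. *Anxa1*, an anti-inflammatory protein, had a value of -1.95 (edgeR adjusted p 0.141) and *Txnip*, a thioredoxin inhibitor, -3.30 (edgeR adjusted p 0.168), while *Cdkn1a*, a cell-cycle inhibitor, had 1.03 (edgeR adjusted p 0.0853) and *Rgs2*, a brake on G-protein signalling, 1.72 (edgeR adjusted p 0.0843). All of these but *Fkbp5* were picked after their values were seen, and none was called by edgeR. *Rgs2* had means of 181, 668, 130.5 and 146 CPM.

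The study's own list of 25 drug-responsive genes, chosen by its authors on these samples and so not independent, gave a median of 0.97. Of its 25 genes, edgeR called 2 higher (0.126% of all genes) and 0 lower, 22 were positive (48.2% of all genes), 16 were positive and 2 negative at an unadjusted p under 0.05 (all genes 9.88% and 10.2%), and DESeq2 called 10 higher and 1 lower. The called genes were *Mt1* and *Ccdc3*, which encodes a secreted protein of fat and vessel cells. *Ccdc3* read 54.6, 48.1, 41.4, 45.9 and 34.4 CPM in parental control and 144, 336, 117, 256 and 169.6 CPM in parental GC tumors. In GRKO control and GRKO GC tumors it read 3.30, 11.2, 5.12, 16.4 and 6.64 CPM and 7.05, 10.7, 7.10, 5.56 and 2.63 CPM. All parental tumors exceeded all GRKO tumors, all parental GC tumors exceeded parental controls, and the GRKO groups overlapped. Its value was 2.57 (SE 0.52, edgeR adjusted p 0.0375), and it was called in 8 of 20 fits and lost without parental control 1, 3, 4 and 5, parental GC 2, 4 and 5, GRKO control 2 and GRKO GC 1, 3, 4 and 5, with edgeR adjusted p-values from 0.0536 to 0.0954. *Gm26776* lies opposite *Ccdc3* at chr2:5137776-5230878 (ENSMUSG00000026676, plus strand), and since the methods name no strand option for the counting, whose default ignores strand, some reads may belong to it. Other members with an unadjusted p under 0.05, picked after their values were seen, were *Scara5*, a ferritin receptor, at 1.87 (edgeR adjusted p 0.0985), *Cyp26b1*, which breaks down retinoic acid, at 1.51 (edgeR adjusted p 0.108), and *Rnf125*, a ubiquitin ligase, at 2.26 (edgeR adjusted p 0.101).

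*M1ap*, a gene of male meiosis, was called higher both in tumors and in the cultured line. Parental tumors read 22.1, 21.3, 19.7, 19.6 and 23.1 CPM of *M1ap* with control and 37.1, 43.9, 37.3, 53.4 and 31.7 CPM with GC. GRKO tumors read 31.1, 34.2, 23.8, 20.3 and 30.2 CPM with control and 13.0, 19.9, 16.8, 23.4 and 16.5 CPM with GC. Each parental GC tumor was above each parental control tumor, and GRKO control tumors overlapped with all other groups. The value was 1.58 (SE 0.29, edgeR adjusted p 0.0293), called in 12 of 20 fits and lost without parental control 3, parental GC 2 and 4, GRKO control 1 and 2 and GRKO GC 1, 3 and 5, with edgeR adjusted p-values from 0.0514 to 0.0808. *M1ap* lies on the plus strand at chr6:82946902-83030309 (ENSMUSG00000030041), where *Gm43985* overlaps on the opposite strand and *Gm19287* on the same strand, so its reads are uncertain.

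*Mt2*, the neighbour of *Mt1* and a protein of the same kind, was not called by edgeR, with 1.07 (SE 0.24, edgeR adjusted p 0.0581). DESeq2 called it (1.10, adjusted p 0.000556), as did edgeR with DESeq2's size factors (0.0454), with at least 10 counts in every library (0.0434), with genes detected as a covariate (0.0324) and in 2 of the 20 fits without 1 tumor. *Mt2* read 311, 281, 295, 313 and 375 CPM in parental control, 1004, 836, 1201, 1112 and 1059 CPM in parental GC, 265, 335, 331, 404 and 273 CPM in GRKO control and 520.4, 619, 494, 405 and 497 CPM in GRKO GC tumors. Every GC tumor was above every control tumor, and parental GC tumors were above GRKO GC tumors without overlap. Of 14 metallothionein and zinc genes tested, edgeR called 1 (*Mt1*; 0.126% of all genes were called higher) and DESeq2 2 higher and 0 lower (4.92% of all genes either way), 3 were positive and 11 negative (48.2% of all genes positive), and the median was -0.42 (from -0.70 without GRKO control 4 to -0.32 without GRKO control 1).

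Promoters of *Mt1*, *Mt2* and *M1ap* are shown because the first pair are known to answer both metals and glucocorticoids and *M1ap* was, like *Mt1*, called in both tumors and cultures. The windows run from 250 bases before to 50 bases after the gene start, all on the plus strand of GRCm38.p6, at chr8:94178839-94179138, chr8:94172368-94172667 and chr6:82946672-82946971, as given by RefSeq. Capitals mark the metal-response core, TGCACNC or TGCGCNC on either strand.
Mt1: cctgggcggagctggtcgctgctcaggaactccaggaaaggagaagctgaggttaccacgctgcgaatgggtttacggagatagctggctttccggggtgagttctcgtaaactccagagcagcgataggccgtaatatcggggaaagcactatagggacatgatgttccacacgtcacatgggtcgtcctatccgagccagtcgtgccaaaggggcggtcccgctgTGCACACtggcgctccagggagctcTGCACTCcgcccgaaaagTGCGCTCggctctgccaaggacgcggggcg
Mt2: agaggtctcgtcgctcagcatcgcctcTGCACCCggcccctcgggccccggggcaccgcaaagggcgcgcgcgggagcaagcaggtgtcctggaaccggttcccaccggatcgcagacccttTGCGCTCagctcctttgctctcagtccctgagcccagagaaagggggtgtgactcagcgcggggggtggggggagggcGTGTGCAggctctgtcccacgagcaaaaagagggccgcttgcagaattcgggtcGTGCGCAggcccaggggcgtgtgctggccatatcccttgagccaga
M1ap: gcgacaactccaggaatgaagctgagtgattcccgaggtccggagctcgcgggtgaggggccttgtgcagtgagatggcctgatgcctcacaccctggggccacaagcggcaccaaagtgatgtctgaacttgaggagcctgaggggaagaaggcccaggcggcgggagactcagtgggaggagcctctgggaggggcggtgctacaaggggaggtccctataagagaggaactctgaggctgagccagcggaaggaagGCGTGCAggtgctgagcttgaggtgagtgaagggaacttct
The core occurred 3 times in *Mt1*, 4 times in *Mt2* and 1 time in *M1ap*, and at least once in 8444 of 32851 promoters (25.7%). One arm of the GR site, AGAACA on either strand, occurred in 6233 promoters (19.0%), and the full site, AGAACA and TGTTCT 3 bases apart, in 3 (0.00913%). The promoters printed here held neither. Of the 31 called genes, 22 were matched with 24 promoters, of which 8 held the metal core and 0 an arm or a full GR site. A match is a description of letters, and no match says nothing about where GR binds.

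**Figure D2:**
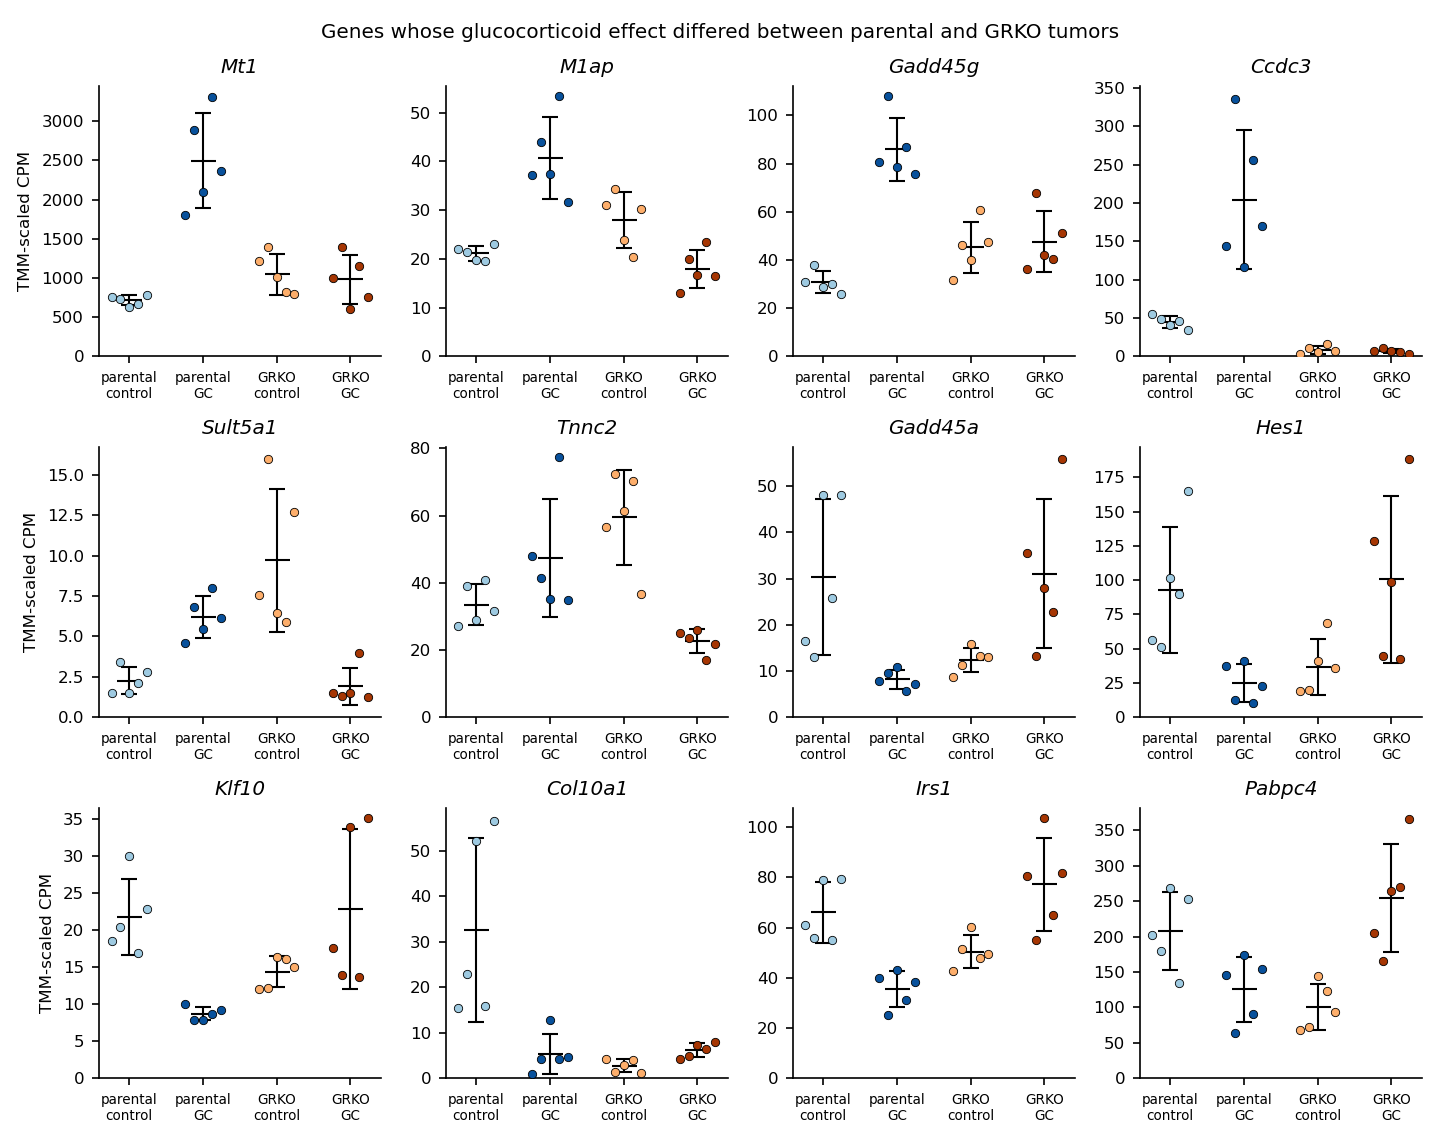
TMM-scaled CPM of 12 called genes in each tumor by group, 1 point per tumor, with the mean and SD as bars. Parental GC tumors lie above all others for *Mt1*, *Gadd45g* and *Ccdc3* and below all others for *Klf10*, while GRKO GC tumors lie below all GRKO control tumors for *Sult5a1* and *Tnnc2*.

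The genes with a lower response in parental tumors mostly had lower means with the drug in parental tumors and higher means with it in GRKO tumors. *Gadd45a*, a stress-induced growth-arrest gene of the same family as *Gadd45g*, read 16.6, 13.0, 48.0, 25.9 and 48.0 CPM in parental control and 7.76, 9.63, 10.9, 5.71 and 7.18 CPM in parental GC tumors. It read 8.72, 11.3, 15.8, 13.2 and 13.1 CPM in GRKO control and 35.6, 13.2, 27.9, 22.8 and 55.9 CPM in GRKO GC tumors. Parental GC tumors were all below parental control tumors, and all GRKO GC tumors but GRKO GC 2 were above all GRKO control tumors. The value was -3.20 (SE 0.52, edgeR adjusted p 0.0168). Its call held in 18 of 20 fits and was lost without parental control 3 and GRKO control 2, with edgeR adjusted p-values from 0.0554 to 0.0594. *E230016M11Rik* lies opposite *Gadd45a* at chr6:67035096-67037457 (ENSMUSG00000036390, minus strand), so its reads are uncertain.

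*Hes1*, a repressor downstream of Notch (ENSMUSG00000022528, plus strand of chr16:30064384-30067796), read 56.4, 51.3, 101, 89.9 and 165 CPM in parental control and 37.2, 12.5, 41.2, 10.6 and 23 CPM in parental GC tumors. GRKO control tumors had 18.8, 19.8, 41.1, 68.9 and 35.7 CPM of *Hes1* and GRKO GC tumors 129, 44.5, 98.3, 42.8 and 188 CPM. All 5 tumors with GC were below the controls in the parental groups, and the GRKO groups overlapped. The value was -3.34 (SE 0.64, edgeR adjusted p 0.0330). Of 20 fits, 9 called it, and the call was lost without parental control 3, 4 and 5, parental GC 2, 4 and 5, GRKO control 1 and 2 and GRKO GC 1, 3 and 5, with edgeR adjusted p-values from 0.0536 to 0.0882.

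*Irs1*, the adaptor that couples insulin and IGF receptors to PI3 kinase, followed the same order. *Irs1* read 61.0, 56.0, 78.9, 54.9 and 79.3 CPM and 39.8, 25.3, 43.1, 31.1 and 38.5 CPM in parental control and GC tumors, and 42.6, 51.6, 60.4, 47.8 and 49.7 CPM and 80.4, 54.9, 104, 65.0 and 81.8 CPM in GRKO tumors. Parental GC tumors were below all parental control tumors, and GRKO GC tumors overlapped GRKO control tumors at GRKO GC 2 alone. Its value was -1.51 (SE 0.28, edgeR adjusted p 0.0293), called in 10 of 20 fits and lost without parental control 3 and 5, parental GC 2, 4 and 5, GRKO control 1 and 2 and GRKO GC 1, 3 and 5, with edgeR adjusted p-values from 0.0502 to 0.0879. *Gm9747* overlaps *Irs1* on the opposite strand at chr1:82233101-82291416 (ENSMUSG00000055980, minus strand).

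*Rcn2* encodes a calcium-binding protein of the endoplasmic reticulum (ENSMUSG00000032320, plus strand of chr9:56041845-56061882). In parental control and GC tumors, *Rcn2* read 34.1, 26.2, 57.5, 29.5 and 67.1 CPM and 24.9, 24.5, 21.8, 21.7 and 17.0 CPM. GRKO control tumors had 17.9, 19.5, 22.3, 22.2 and 18 CPM and GRKO GC tumors 30.5, 31.4, 36.0, 38.2 and 60.6 CPM. Neither pair of groups overlapped, with the GC tumors lower in parental and higher in GRKO tumors. The value was -1.94 (SE 0.35, edgeR adjusted p 0.0293). It was called in 11 of 20 fits and lost without parental control 3 and 5, parental GC 2, 4 and 5, GRKO control 1 and 2 and GRKO GC 3 and 5, with edgeR adjusted p-values from 0.0502 to 0.0840.

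*Pabpc4*, a poly(A)-binding protein, read 203, 179, 269, 135 and 253 CPM in parental control and 146, 63.3, 174, 90.9 and 154 CPM in parental GC tumors. It read 67.6, 72.6, 144, 123 and 94.2 CPM in GRKO control and 205, 165, 265, 271 and 366 CPM in GRKO GC tumors. The GRKO groups did not overlap, with GC tumors higher, while the parental groups did. Its value was -2.07 (SE 0.40, edgeR adjusted p 0.0330). Its call held in 9 of 20 fits and was lost without parental control 1, 3 and 5, parental GC 2, 4 and 5, GRKO control 1 and 2 and GRKO GC 1, 3 and 5, with edgeR adjusted p-values from 0.0502 to 0.0882. *Gm12900* overlaps *Pabpc4* at chr4:123262351-123298925 (ENSMUSG00000011257, plus strand) on the opposite strand.

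*Col10a1*, a collagen of hypertrophic cartilage that some stromal cells make, was highest in parental control tumors. *Col10a1* read 15.5, 22.9, 52.1, 15.8 and 56.6 CPM and 0.919, 4.19, 12.7, 4.14 and 4.79 CPM in parental control and GC tumors. In GRKO tumors it read 4.18, 1.37, 2.94, 4.13 and 1.23 CPM with control and 4.19, 4.96, 7.33, 6.36 and 7.90 CPM with GC. Parental GC tumors were all below parental controls, and GRKO GC tumors were above GRKO controls, by as little as 4.19 against 4.18 CPM. The value was -3.75 (SE 0.72, edgeR adjusted p 0.0330). Of 20 fits, 10 called it, and the call was lost without parental control 3 and 5, parental GC 2, 4 and 5, GRKO control 1 and 2 and GRKO GC 1, 3 and 5, with edgeR adjusted p-values from 0.0514 to 0.0882. *Col10a1* (ENSMUSG00000039462, plus strand of chr10:34389981-34397085) overlaps *Nt5dc1* on the opposite strand, so its reads are uncertain.

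The remaining lower genes were set apart mainly by low GRKO control or high GRKO GC tumors. *Edil3*, an integrin ligand of vessels, had means of 52.2 ± 8.73, 55.5 ± 3.82, 24.0 ± 6.96 and 64.2 ± 11.5 CPM, and its GRKO control tumors (15.5 to 33.8 CPM) were below all others. *Gfra1*, a receptor for GDNF on nerve and some tumor cells, had 11.9 ± 2.67, 7.27 ± 1.42, 15.4 ± 4.62 and 31.1 ± 8.28 CPM, with GRKO GC tumors (23.2 to 40.2 CPM) above all others. *Rapgef4*, a cAMP sensor, had 12.3 ± 2.61, 9.52 ± 3.02, 4.24 ± 1.18 and 13.4 ± 4.35 CPM, and *Atrnl1*, an attractin-like membrane protein, 27.3 ± 8.64, 16.4 ± 5.19, 11.9 ± 4.58 and 32.4 ± 14.4 CPM. Their values were -1.33, -1.73, -2.03 and -2.18 (standard errors 0.28, 0.36, 0.42 and 0.46, adjusted p of 0.0414 each from edgeR). They were called in 6, 5, 5 and 7 of 20 fits. Antisense genes overlap *Rapgef4*, *Gfra1* and *Atrnl1*.

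In some higher genes, GRKO control and parental GC tumors both had higher means than the remaining groups. *Trim29*, a protein of keratinocytes and other squamous epithelium (ENSMUSG00000032013, plus strand of chr9:43310848-43336115), read 204, 164, 186, 187 and 223 CPM in parental control and 183, 240.2, 144, 326 and 209 CPM in parental GC tumors. GRKO control tumors had 619, 511, 350.0, 278 and 273 CPM and GRKO GC tumors 126, 126, 155, 161 and 136 CPM. GRKO GC tumors were all below GRKO control tumors, and the parental groups overlapped. The value was 1.72 (SE 0.32, edgeR adjusted p 0.0330). It was called in 9 of 20 fits and lost without parental control 1, 3 and 4, parental GC 2, 4 and 5, GRKO control 1 and 2 and GRKO GC 1, 3 and 5, with edgeR adjusted p-values from 0.0502 to 0.0840. *Cdsn*, a glue protein of the outer epidermis, had means of 93.9 ± 38.3, 167 ± 43.1, 158 ± 46.3 and 86.9 ± 8.40 CPM and a value of 1.69 (SE 0.35, edgeR adjusted p 0.0414). *Cdsn* was called in 6 of 20 fits.

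Markers of epidermal keratinocytes had, in sum, their highest mean in GRKO control tumors, like *Trim29*. Their summed level was 14402, 14901, 9289, 8618 and 9680.2 CPM in GRKO control and 4096, 5529, 6894, 6562 and 5948 CPM in GRKO GC tumors. It was 5767, 5801, 7078, 5295 and 12277 CPM in parental control and 5218, 7555, 5019, 6240.5 and 6248 CPM in parental GC tumors. GRKO control tumors were above all others except parental control 5. The sum's difference of differences was 0.75 (SD between tumors 0.36). *Krt14*, a keratin of the basal layer and the most abundant marker, had means of 1014 ± 811, 718 ± 172, 2277 ± 1014 and 851 ± 284 CPM and a value of 0.92 (SE 0.54, edgeR adjusted p 0.334). With 1 tumor left out, the *Krt14* value ran from 0.72 to 1.55, and with the skin covariate it was -0.03. Of 26 keratinocyte genes tested, 13 had positive and 13 negative values (all genes 48.2% positive). At an unadjusted p under 0.05, 8 were positive and 5 negative (all genes 9.88% and 10.2%). Of the 26, edgeR called 0 and DESeq2 5 higher and 1 lower (4.92% of all genes). Their median was -0.07 (from -0.17 without GRKO control 4 to 0.14 without parental control 5). It was 0.01 with at least 10 counts in every library, 0.14 with the depth covariate and 0.21 without the low-TMM tumors. *Sbsn* and *Dmkn*, secreted proteins of the upper epidermis picked after their values were seen, had 1.22 (edgeR adjusted p 0.0510) and 1.40 (edgeR adjusted p 0.0675). *Krt10* and *Krt1*, keratins of the layers above the basal one picked in the same way, had -1.55 (edgeR adjusted p 0.198) and -0.94 (edgeR adjusted p 0.226). Of the 29 markers in the table, 1 was at 0 in all tumors, and in cultures the sum was 18.4 to 33.7 CPM. With this level as a covariate, added after the data were seen, edgeR called 3 genes, 0 higher and 3 lower, with *Gadd45a* at -3.37 and *Rcn2* at -2.24 (adjusted p = 0.0178 each) the ones shared with the 31, while *Mt1* had 1.62 (adjusted p = 0.187) and *Trim29* 1.14 (adjusted p = 0.261). What part the skin in each sample had in these results was not tested.

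*Sult5a1*, a sulfotransferase of low level, had the largest value of the 31. *Sult5a1* read 1.53, 3.41, 1.49, 2.11 and 2.83 CPM in parental control and 4.59, 6.80, 5.48, 7.98 and 6.16 CPM in parental GC tumors. It read 7.55, 16, 6.42, 5.87 and 12.7 CPM in GRKO control and 1.52, 1.35, 1.48, 3.97 and 1.27 CPM in GRKO GC tumors. Neither pair of drug groups overlapped, with GC tumors higher in parental and lower in GRKO tumors. The value was 3.78 (SE 0.58, edgeR adjusted p 0.0150), called in 18 of 20 fits and lost without parental control 3 and GRKO control 2, with edgeR adjusted p-values from 0.0517 to 0.0529. *Gm20388* overlaps it on the opposite strand at chr8:123140192-123158315 (ENSMUSG00000000739, minus strand).

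*Gstm2*, a glutathione transferase that detoxifies reactive compounds, read 13.8, 24.4, 18.9, 18.5 and 23.6 CPM and 25.9, 53.9, 26.4, 40.5 and 29.1 CPM in parental control and GC tumors (ENSMUSG00000040562, minus strand of chr3:107981702-107986453). In GRKO tumors it read 55.3, 41.2, 35.9, 41.9 and 35.2 CPM with control and 25.1, 30.5, 16.9, 16.7 and 21.5 CPM with GC. Again neither pair overlapped, and the drug groups lay in opposite orders. The value was 1.75 (SE 0.34, edgeR adjusted p 0.0330), called in 7 of 20 fits and lost without parental control 1, 3, 4 and 5, parental GC 2, 4 and 5, GRKO control 1 and 2 and GRKO GC 1, 3, 4 and 5, with edgeR adjusted p-values from 0.0502 to 0.0886. *Gstm2* has close paralogs, between which 3′ reads may be shared. *Pcx*, the mitochondrial enzyme that refills the citric acid cycle, had means of 11.4 ± 1.70, 23 ± 10.3, 27.3 ± 9.99 and 11.8 ± 3.76 CPM and *Ddah1*, which breaks down inhibitors of nitric oxide synthase, 43.8 ± 8.0, 88.0 ± 27.5, 92.5 ± 29.2 and 61.8 ± 11.4 CPM. Their values were 2.23 (SE 0.45, edgeR adjusted p 0.0375) and 1.59 (SE 0.33, edgeR adjusted p 0.0414). *Lrfn4* lies opposite *Pcx*.

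Among secreted and matrix proteins, *Slit3*, a guidance cue, had means of 7.70 ± 1.88, 14.92 ± 5.54, 19.0 ± 9.26 and 8.19 ± 2.23 CPM. *Clec3b*, the plasma and matrix protein tetranectin, had 40.3 ± 15, 59.8 ± 9.44, 72.5 ± 34.1 and 25.5 ± 7.6 CPM. Their values were 2.17 and 2.08 (standard errors 0.45 and 0.42, adjusted p of 0.0414 and 0.0375 from edgeR), and they were called in 6 and 9 of 20 fits. Further genes of the 31, outside the rule for named genes and so picked after their values were seen, were *Tns4*, a focal adhesion protein (1.56), *Lrg1*, a secreted modulator of TGF-β signalling in vessels (1.52), *Tssc1* (1.30) and *Bysl*, a ribosome assembly factor (1.33). Their adjusted p-values from edgeR were 0.0356, 0.0375, 0.0375 and 0.0499. *Bysl* overlaps *Ccnd3* on the opposite strand. Genes on the opposite strand also overlap *Slit3*, *Mt2*, *Fkbp5*, *Il1b*, *Acta1*, *Ltbp3*, *B2m*, *Tef* and *Top2a*, and genes on the same strand *Ddah1*, *Tssc1*, *Ccdc3*, *Pabpc4*, *Col3a1* and *Klf9*, so their reads are uncertain too.

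Genes of striated muscle had values of 1 sign: all 24 tested were positive, against 48.2% of all genes, with a median of 0.94. Among them edgeR called *Tnnc2* alone (0.126% of all genes were called higher), 14 were positive and 0 negative at an unadjusted p under 0.05 (all genes 9.88% and 10.2%), and DESeq2 called 5 higher and 0 lower (4.92% of all genes). *Tnnc2*, the calcium sensor of fast muscle, read 27.3, 39.2, 28.8, 40.9 and 31.5 CPM in parental control and 48.1, 41.5, 35.1, 77.4 and 34.9 CPM in parental GC tumors. It read 56.5, 72.3, 61.3, 70.2 and 36.8 CPM in GRKO control and 25, 23.7, 25.9, 16.9 and 21.7 CPM in GRKO GC tumors. GRKO GC tumors were below all GRKO control tumors, and the parental groups overlapped. The value was 1.89 (SE 0.33, edgeR adjusted p 0.0223). Its call held in 17 of 20 fits and was lost without parental control 3, GRKO control 2 and GRKO GC 5, with edgeR adjusted p-values from 0.0564 to 0.0808. *Ube2c*, a cell-cycle gene, overlaps *Tnnc2* on the opposite strand at chr2:164777161-164779967 (ENSMUSG00000017300, minus strand), and its own value was negative, -1.84 (edgeR adjusted p 0.144).

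The summed level of muscle genes was 1020.4, 871, 863, 760.3 and 825 CPM in parental control and 1328, 1093, 857, 1272 and 1029.8 CPM in parental GC tumors. It was 1211, 1249, 1280.4, 1148 and 1027 CPM in GRKO control and 789.7, 1055, 972, 917 and 709 CPM in GRKO GC tumors. The groups overlapped within each genotype, in GRKO tumors at GRKO GC 2, and the sum's difference of differences was 0.77 (SD between tumors 0.20). *Acta1*, the actin of the muscle fibre and its most abundant gene, had means of 269 ± 26.8, 227 ± 93.7, 327 ± 109 and 212 ± 39.9 CPM and a value of 0.38 (SE 0.35, edgeR adjusted p 0.564). *Tnni2*, *Myh4* and *Ckm*, a troponin, a myosin and a creatine kinase of fast fibres picked after their values were seen, had 1.54 (edgeR adjusted p 0.0767), 1.82 (edgeR adjusted p 0.0853) and 1.17 (edgeR adjusted p 0.127). None of the 25 listed genes was at 0 in all tumors, and 9 were at 0 in all cultures. Cultures of the line, with no host cells, summed to 464 to 775 CPM, so this sum is not a measure of host muscle only, and the part of muscle under the skin was not tested.

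TGF-β, a cytokine that restrains T cells, is stored in a latent form that GARP, the product of *Lrrc32*, holds on the cell surface. *Lrrc32* read 68.8, 54.4, 70.2, 39.5 and 71.5 CPM in parental control and 24.9, 13.3, 21.2, 22.2 and 27.8 CPM in parental GC tumors. It read 45.9, 68.6, 94.3, 59.8 and 45.5 CPM in GRKO control and 45.2, 47.5, 47.4, 97.7 and 70.2 CPM in GRKO GC tumors. All 5 parental GC tumors were below the other 15, and the GRKO groups overlapped. The difference of differences was -1.45 (SE 0.36, edgeR adjusted p 0.0820), past the ratio but not the adjusted p, and was called by DESeq2 (-1.42, adjusted p 0.0146) and, among edgeR fits without 1 tumor, only without GRKO control 4, with -1.42 (edgeR adjusted p 0.0309). *Tgfb1*, the ligand, had means of 41.4 ± 18.4, 33.6 ± 13.4, 45.9 ± 15.3 and 43.5 ± 26.4 CPM and a value of -0.23 (SE 0.49, edgeR adjusted p 0.832). Of 21 genes of TGF-β ligands and their activation tested, edgeR called 0, 3 were positive and 4 negative at an unadjusted p under 0.05 (all genes 9.88% and 10.2%), and DESeq2 called 1 higher and 2 lower, and the median was 0.09 (from -0.08 without GRKO control 1 to 0.21 without GRKO GC 4; -0.22 with the depth covariate, -0.17 with the skin covariate and -0.18 without the low-TMM tumors). *Ltbp3*, a matrix anchor of latent TGF-β and the most abundant of them, had means of 489.7 ± 126, 393 ± 59.8, 557 ± 215 and 398 ± 102 CPM and a value of 0.17 (SE 0.35, edgeR adjusted p 0.825). *Tgfb3* and the activator *Thbs1*, picked after their values were seen, had -1.47 (edgeR adjusted p 0.10) and 1.55 (edgeR adjusted p 0.0902).

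Among targets and feedback regulators of TGF-β, more values were negative than positive, and no test was run against all genes. Of 30 tested, edgeR called 1 higher (*Cyr61*) and 1 lower (*Klf10*), against 0.126% and 0.0691% of all genes. At an unadjusted p under 0.05, 3 were positive and 9 negative (all genes 9.88% and 10.2%). DESeq2 called 3 higher and 4 lower (4.92% of all genes either way). Their median was -0.34 (from -0.86 without GRKO control 4 to -0.19 without GRKO GC 5), within the SD between tumors of 0.41. Values were positive in 9 and negative in 21, against 48.2% positive over all genes. *Klf10*, an early repressor induced by TGF-β (ENSMUSG00000037465, minus strand of chr15:38291463-38300706), read 18.5, 20.3, 29.9, 16.9 and 22.8 CPM in parental control and 9.95, 7.85, 7.82, 8.72 and 9.23 CPM in parental GC tumors. It read 12.1, 12.1, 16.3, 16.1 and 15.1 CPM in GRKO control and 17.6, 13.9, 33.9, 13.7 and 35.1 CPM in GRKO GC tumors. The parental GC tumors again lay below the other 15, and the GRKO groups overlapped. Its value was -1.98 (SE 0.38, edgeR adjusted p 0.0330), and the call was lost without parental control 1, 3 and 5, parental GC 2, 4 and 5, GRKO control 1 and 2 and GRKO GC 1, 3 and 5, with edgeR adjusted p-values from 0.0510 to 0.0886. *Tgif1*, *Skil* and *Smad7*, which hold back SMAD signalling, had -2.73 (SE 0.72, edgeR adjusted p 0.0849), -0.67 (SE 0.23, edgeR adjusted p 0.128) and -1.23 (SE 0.44, edgeR adjusted p 0.141). In *Skil* and *Smad7* all 5 parental GC tumors were below all parental control tumors, and in *Tgif1* they overlapped, and DESeq2 called it (-2.68, adjusted p 0.0101). *Id3*, an inhibitor of helix-loop-helix factors picked after its values were seen, had -2.43 (edgeR adjusted p 0.0589). *Pmepa1*, the most abundant of these genes, had means of 1029.8 ± 166, 1159.6 ± 246, 1492 ± 463 and 1532 ± 226 CPM and a value of 0.13 (SE 0.32, edgeR adjusted p 0.848).

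*Cyr61*, a matrix protein induced by mechanical strain and YAP, read 9.23, 14.2, 18.2, 10.1 and 12.5 CPM and 15.4, 33.9, 24.8, 103 and 31.3 CPM in parental control and GC tumors. In GRKO tumors it read 38.4, 38.1, 42.0, 34.7 and 44.9 CPM with control and 15.6, 30.6, 23.6, 17.9 and 29.9 CPM with GC. Parental GC 4 was far above its group, and GRKO GC tumors were all below GRKO control tumors. The value was 2.45 (SE 0.50, edgeR adjusted p 0.0392), and 1.79 without parental GC 4. Of 20 fits, 5 called it, and the call was lost without parental control 1, 3, 4 and 5, parental GC 2, 4 and 5, GRKO control 1, 2, 3 and 5 and GRKO GC 1, 3, 4 and 5, with edgeR adjusted p-values from 0.0536 to 0.0886. *Cyr61* is listed as ENSMUSG00000028195 on the minus strand at chr3:145646976-145649981.

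Among proliferation genes more values were negative than positive, without a call by edgeR or a test against all genes. Of 34 cell-cycle genes tested, edgeR called 0, and 2 were positive and 15 negative at an unadjusted p under 0.05 (all genes 9.88% and 10.2%). DESeq2 called 0 higher and 4 lower (4.92% of all genes either way). Values were positive in 6 and negative in 28, against 48.2% positive over all genes. Their median was -0.58, against 0.31 in cultures. *Top2a*, a topoisomerase of dividing cells and the most abundant of them, had means of 329 ± 58.9, 349 ± 57.7, 399 ± 91.9 and 395 ± 62.5 CPM and a value of 0.10 (SE 0.27, edgeR adjusted p 0.866). *Mcm4* and *Bub1b*, for DNA replication and the spindle checkpoint, picked after their values were seen, had means of 20.1, 10.1, 7.49 and 20.3 CPM and of 42.3, 14.8, 20.7 and 35.4 CPM. Their values were -2.43 (edgeR adjusted p 0.0725) and -2.29 (edgeR adjusted p 0.0848).

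Immediate-early genes, which growth factors and tissue stress switch on within minutes, had 8 positive and 25 negative values (all genes 48.2% positive). Of 33 tested, edgeR called 0, and 4 were positive and 6 negative at an unadjusted p under 0.05 (all genes 9.88% and 10.2%). DESeq2 called 2 higher and 2 lower (4.92% of all genes either way), and no test was run against all genes. The median was -0.44 (from -0.76 without GRKO control 4 to -0.33 without GRKO control 3; -0.27 without the low-TMM tumors), within the SD between tumors of 0.46. *Klf4*, an epithelial transcription factor and the most abundant, had means of 172 ± 86.6, 386 ± 175, 364 ± 168 and 225 ± 58.1 CPM and a value of 1.87 (SE 0.52, edgeR adjusted p 0.0902), called by DESeq2 (1.90, adjusted p 0.0133). The *Klf4* value was 1.34 with the depth covariate and 0.92 without the low-TMM tumors (edgeR adjusted p 0.658). *Egr1* and *Phlda1*, picked after their values were seen, had -1.30 (edgeR adjusted p 0.0842) and -1.49 (edgeR adjusted p 0.0631), and *Dusp5*, a phosphatase that turns off ERK, 2.29 (edgeR adjusted p 0.0626). Of 22 heat-shock and stress genes tested, edgeR called 0, DESeq2 1 higher and 1 lower, and 5 were positive and 3 negative at an unadjusted p under 0.05. Their median was 0.20 (0.31 without the low-TMM tumors). *Hspa5*, the chaperone of the endoplasmic reticulum and the most abundant, had a value of 0.20 (SE 0.30, edgeR adjusted p 0.748). Of 20 hypoxia and glycolysis genes tested, edgeR called 0, DESeq2 0 higher and 2 lower, and 4 were positive and 4 negative at an unadjusted p under 0.05. Their median was -0.08 (from -0.19 without parental GC 3 to 0.16 without GRKO GC 5; 0.14 with at least 10 counts in every library, 0.10 with the depth covariate and 0.09 without the low-TMM tumors). *Ldha*, which makes lactate and was the most abundant, had a value of -0.21 (SE 0.26, edgeR adjusted p 0.690), while *Slc2a1*, a glucose transporter picked after its values were seen, had -1.10 (edgeR adjusted p 0.108).

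Inflammatory genes, which GR lowers in many cell types, held 0 genes called by edgeR. Since 0.195% of all genes were called, 0 of 28 tested says little about this list. Of 36 inflammatory and NF-κB genes, 28 were tested and edgeR called 0, 2 were positive and 2 negative at an unadjusted p under 0.05 (all genes 9.88% and 10.2%), and DESeq2 called 0 higher and 0 lower, and the median was -0.27 (from -0.59 without GRKO control 4 to -0.12 without parental GC 3; -0.09 with the depth covariate, -0.13 with the skin covariate and -0.02 without the low-TMM tumors). *Il1b*, a cytokine of myeloid cells, read 18.2, 65.3, 46.9, 28.3 and 50.0 CPM and 10.3, 2.51, 5.08, 4.33 and 3.99 CPM in parental control and GC tumors, and 6.45, 29.8, 41.0, 45.5 and 30.4 CPM and 5.75, 2.59, 8.90, 7.63 and 6.4 CPM in GRKO tumors. Parental GC tumors were all below parental control tumors, and GRKO GC tumors were below GRKO control tumors except GRKO control 1. The *Il1b* value was -0.70 (SE 0.61, edgeR adjusted p 0.533). *Tnf*, another such cytokine, read 11.8, 9.36, 15.2, 9.85 and 12.1 CPM and 3.52, 3.56, 2.34, 2.95 and 2.34 CPM in parental control and GC tumors, and 14.8, 20.6, 15.1, 17.3 and 13.5 CPM and 2.18, 1.99, 3.64, 2.07 and 0.409 CPM in GRKO tumors. GC tumors of both genotypes lay below all control tumors, and the value was 0.99 (SE 0.50, edgeR adjusted p 0.269). *Nfkbia*, the inhibitor of NF-κB and the most abundant of the list, had means of 207 ± 27.5, 257 ± 124, 187 ± 71.4 and 217 ± 43.1 CPM and a value of 0.10 (SE 0.41, edgeR adjusted p 0.917). Of 46 interferon-stimulated genes tested, edgeR called 0, DESeq2 0 higher and 0 lower, and 1 was positive and 2 negative at an unadjusted p under 0.05. Their median was -0.05 (from -0.41 without GRKO control 4 to 0.05 without parental control 4; 0.06 with the depth covariate, 0.33 with the skin covariate and 0.09 without the low-TMM tumors). *Cxcl9*, a chemokine for T cells and the most abundant, had a value of -0.04 (SE 0.47, edgeR adjusted p 0.975). Of 18 circadian clock genes tested, edgeR called 0, DESeq2 0 higher and 0 lower, and 1 was positive and 1 negative at an unadjusted p under 0.05. Their median was 0.27 (from 0.08 without parental GC 5 to 0.37 without GRKO control 2; 0.07 with the depth covariate, -0.02 with the skin covariate and 0.05 without the low-TMM tumors). *Tef*, a clock output factor and the most abundant, had a value of 0.40 (SE 0.33, edgeR adjusted p 0.510).

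Markers of immune cells were summed per tumor and described without a test. T-cell markers summed to 511, 408, 386, 462 and 274 CPM in parental control, 366, 354, 216, 411 and 271 CPM in parental GC, 515, 529, 441, 716 and 424 CPM in GRKO control and 249, 366, 318, 204 and 228 CPM in GRKO GC tumors. All GRKO GC tumors were below all GRKO control tumors, the parental groups overlapped, and the difference of differences was 0.61 (SD between tumors 0.34). Of 20 T-cell genes tested, edgeR called 0, DESeq2 1 higher and 0 lower, and 4 were positive and 0 negative at an unadjusted p under 0.05 (all genes 9.88% and 10.2%). Their median was 0.57 (from 0.28 without GRKO control 4 to 0.74 without GRKO control 1; 0.98 with the skin covariate and 0.87 without the low-TMM tumors). *Thy1*, the most abundant, had a value of -0.06 (SE 0.30, edgeR adjusted p 0.927). Mast-cell markers summed to 195, 195, 152, 178 and 242 CPM in parental control, 249, 374, 241, 321 and 293 CPM in parental GC, 154, 178, 114, 154 and 133 CPM in GRKO control and 114, 149, 121, 144 and 166 CPM in GRKO GC tumors. Parental GC tumors were above the other groups except for an overlap with parental control 5 at 242 CPM, and the difference of differences was 0.69 (SD between tumors 0.24). Of 9 mast-cell genes tested, edgeR called 0, DESeq2 0 higher and 0 lower, and 3 were positive and 0 negative at an unadjusted p under 0.05. Their median was 0.75. *Tpsb2*, a tryptase and the most abundant, had means of 63.5 ± 11.1, 130.0 ± 52.7, 43.6 ± 13.8 and 53.0 ± 13.8 CPM and a value of 0.75 (SE 0.37, edgeR adjusted p 0.255).

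Killer cells and regulatory T cells, cells that TGF-β acts on, had sums with a difference of differences of 0.56 (SD between tumors 0.41) and 0.13 (from 0.04 without parental control 5 to 0.21 without parental control 1), the latter with an SD of 0.22. Of 22 cytotoxic and NK-cell genes tested, edgeR called 0, DESeq2 0 higher and 0 lower, and 1 was positive and 0 negative at an unadjusted p under 0.05 (all genes 9.88% and 10.2%). Their median was 0.52 (from 0.29 without parental GC 4 to 0.65 without parental control 4). *Gzmc*, a granzyme and the most abundant, had a value of 0.54 (SE 0.49, edgeR adjusted p 0.557). Of 11 regulatory T-cell genes tested, edgeR called 0, DESeq2 2 higher and 1 lower, and 2 were positive and 1 negative at an unadjusted p under 0.05. Their median was -0.28 (from -0.53 without parental GC 1 to 0.18 without GRKO GC 5; 0.62 with at least 10 counts in every library, 0.13 with the depth covariate, 0.42 with the skin covariate and 0.18 without the low-TMM tumors). *Lrrc32* was the most abundant of these, and *Tnfrsf18* and *Tnfrsf4*, costimulatory receptors picked after their values were seen, had 1.39 (edgeR adjusted p 0.0589) and 1.61 (edgeR adjusted p 0.0836). In cultures, with no host cells, the regulatory T-cell markers summed to 13.5 to 57.3 CPM. *Lrrc32* alone had a mean of 19.0 CPM in parental cells with DMSO, so this list is not a measure of host cells only. For macrophages the sum had a difference of differences of 0.53 (SD between tumors 0.30). Of 25 monocyte and macrophage genes tested, edgeR called 0, DESeq2 0 higher and 1 lower, and 3 were positive and 2 negative at an unadjusted p under 0.05. Their median was 0.06 (from -0.11 without GRKO control 4 to 0.23 without parental control 2; 0.22 with the depth covariate, 0.44 with the skin covariate and 0.29 without the low-TMM tumors). *Apoe*, a lipid carrier and the most abundant, had a value of 0.49 (SE 0.34, edgeR adjusted p 0.430).

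Of 17 dendritic-cell genes tested, edgeR called 0, DESeq2 1 higher and 0 lower, and 4 were positive and 0 negative at an unadjusted p under 0.05 (all genes 9.88% and 10.2%). Their median was 0.35 (from 0.02 without GRKO control 4 to 0.42 without GRKO control 1; 0.68 with the skin covariate). The sum gave 0.24 (from 0.14 without GRKO control 4 to 0.33 without GRKO GC 2), with an SD between tumors of 0.24, and *H2-Ab1*, an MHC class II chain and the most abundant, had a value of 0.71 (SE 0.30, edgeR adjusted p 0.190). Of 11 MHC class II genes tested, edgeR called 0, DESeq2 1 higher and 0 lower, and 3 were positive and 0 negative at an unadjusted p under 0.05. Their median was 0.41 (0.70 with the depth covariate, 0.77 with the skin covariate and 0.69 without the low-TMM tumors). Of 17 MHC class I genes tested, edgeR called 0, DESeq2 0 higher and 0 lower, and 1 was positive and 0 negative at an unadjusted p under 0.05. Their median was -0.60 (-0.29 with the depth covariate, -0.12 with the skin covariate and -0.14 without the low-TMM tumors). The SD of that median between tumors was 0.61. *B2m*, the shared light chain of MHC class I, had a value of -0.44 (SE 0.36, edgeR adjusted p 0.50). Of 16 neutrophil genes tested, edgeR called 0, DESeq2 0 higher and 0 lower, and 2 were positive and 1 negative at an unadjusted p under 0.05. Their median was -0.73 (from -0.99 without GRKO control 4 to -0.28 without parental control 5; -0.36 with the depth covariate, -0.41 with the skin covariate and -0.11 without the low-TMM tumors). The neutrophil sum gave -0.02 (from -0.36 without parental control 1 to 0.43 without parental control 5) with an SD between tumors of 0.81, and *Mmp9*, a matrix protease and the most abundant, a value of -0.74 (SE 0.56, edgeR adjusted p 0.465). Of 10 B and plasma cell genes tested, edgeR called 0, DESeq2 0 higher and 0 lower, and 1 was positive and 2 negative at an unadjusted p under 0.05. Their median was -0.63 (from -1.63 without GRKO control 4 to -0.31 without parental control 2; 1.00 with at least 10 counts in every library, -1.10 with the skin covariate and -0.01 without the low-TMM tumors). The sum gave -0.77 (SD between tumors 0.41; cultures alone 9.47 to 40.4 CPM), and *Xbp1*, a secretory regulator and the most abundant, a value of -1.46 (SE 0.58, edgeR adjusted p 0.173).

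The fibroblast sum had a negative difference, unlike that of muscle. Fibroblast and pericyte markers summed to 10693, 10609, 10551, 10396 and 10467 CPM in parental control, 14616, 12719, 14355, 12951 and 14974 CPM in parental GC, 7575, 7783, 8365, 9713 and 8644 CPM in GRKO control and 13492, 12334, 15177, 11946 and 15053 CPM in GRKO GC tumors. In both genotypes all GC tumors were above all control tumors, GRKO control tumors were below all others, and the difference of differences was -0.29 (SD between tumors 0.12). Cultures of the line alone summed to 3944 to 6773 CPM, so this sum is not a measure of host fibroblasts only. Of 22 fibroblast and pericyte genes tested, edgeR called 0, DESeq2 3 higher and 2 lower, and 5 were positive and 4 negative at an unadjusted p under 0.05 (all genes 9.88% and 10.2%). Their median was -0.06 (from -0.11 without parental GC 2 to 0.00 without parental control 1; 0.06 without the low-TMM tumors). *Col3a1*, a fibrillar collagen and the most abundant, had means of 2944 ± 273, 3546 ± 1045, 1475 ± 394 and 3021 ± 274 CPM and a value of -0.77 (SE 0.30, edgeR adjusted p 0.172). Of 27 collagen and matrix genes tested, edgeR called 0, DESeq2 2 higher and 2 lower, and 2 were positive and 5 negative at an unadjusted p under 0.05. Their median was -0.06 (from -0.09 without parental control 4 to 0.00 without GRKO GC 3). *Sparc*, a collagen-binding protein and the most abundant, had a value of 0.60 (SE 0.35, edgeR adjusted p 0.328). Of 20 endothelial genes tested, edgeR called 0, DESeq2 0 higher and 0 lower, and 1 was positive and 2 negative at an unadjusted p under 0.05. Their median was -0.13 (from -0.25 without parental control 5 to -0.01 without parental GC 2; -0.31 with the skin covariate). Their sum gave -0.14 (SD between tumors 0.10; cultures alone 245 to 352 CPM), and *Flt1*, a VEGF receptor and the most abundant, a value of -0.55 (SE 0.22, edgeR adjusted p 0.183).

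Markers of other skin tissue were summed in the same way. In cultures, with no host cells, the sums were 62.5 to 85.1 CPM for adipocyte, 93.3 to 193 CPM for Schwann-cell and 534 to 1027 CPM for hair-follicle and sebaceous markers, against tumor group means of 188 to 306, 157 to 210.1 and 561 to 783 CPM, so the last 2 sums are no measure of host tissue. Of 15 adipocyte genes tested, edgeR called 0, DESeq2 1 higher and 0 lower, and 3 were positive and 0 negative at an unadjusted p under 0.05 (all genes 9.88% and 10.2%). Their median was 0.41 (from 0.25 without GRKO control 4 to 0.59 without GRKO control 5; 0.80 with the skin covariate and 0.94 without the low-TMM tumors). *Cfd*, the adipokine adipsin and the most abundant, had means of 121 ± 21.9, 104 ± 16, 117 ± 38.3 and 47.1 ± 6.06 CPM and a value of 1.10 (SE 0.29, edgeR adjusted p 0.0838), called by DESeq2 (1.13, adjusted p 0.0126), and the adipocyte sum gave 0.55 (SD between tumors 0.24). Of 9 erythroid and platelet genes tested, edgeR called 0, DESeq2 3 higher and 0 lower, and 3 were positive and 0 negative at an unadjusted p under 0.05. Their median was 0.78 (from 0.35 without GRKO control 1 to 1.46 without GRKO GC 4; 0.38 without the low-TMM tumors). *Pf4*, a platelet chemokine and the most abundant, had a value of -0.19 (SE 0.30, edgeR adjusted p 0.762), and the sum gave 0.34 (SD 0.20). Of 11 Schwann-cell genes tested, edgeR called 0, DESeq2 2 higher and 0 lower, and 3 were positive and 0 negative at an unadjusted p under 0.05. Their median was 0.10 (from -0.03 without parental control 1 to 0.62 without parental control 2). It was 0.44 without the low-TMM tumors and 0.90 with at least 10 counts in every library. *Pmp22*, a myelin protein and the most abundant, had a value of -0.06 (SE 0.28, edgeR adjusted p 0.935), and the sum gave 0.45 (SD 0.24). Of 19 hair-follicle and sebaceous genes tested, edgeR called 0, DESeq2 0 higher and 0 lower, and 0 were positive and 0 negative at an unadjusted p under 0.05. Their median was -1.81 (from -4.53 without GRKO control 1 to 0.95 without GRKO GC 4). It was 0.51 with at least 10 counts in every library and -4.86 with the depth covariate. It was -5.81 with the skin covariate and -8.23 without the low-TMM tumors. A median that moves this far between fits is no measure of size. The sum gave -0.04 (from -0.16 without GRKO GC 1 to 0.15 without GRKO GC 4), with an SD of 0.39. *Fasn*, a fatty acid synthase and the most abundant, had a value of 0.53 (SE 0.35, edgeR adjusted p 0.402).

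Cultures of the same lines, with no host cells, were set beside the tumors. Parental and GRKO cells were grown with DMSO or clobetasol propionate, at 10 µM by the treatment label and 1 µM by the library name, in 3, 2, 3 and 3 cultures, with 14441166 to 22463188 reads each. The same difference of differences called 37 of 12525 genes (0.295%) there, 28 higher and 9 lower, and 1075 (8.58%) had an unadjusted p under 0.05. Without parental DMSO culture 1 it called 23 genes, without GRKO DMSO culture 1 or 2 it called 23 each, and without GRKO GC culture 2 it called 22. Fits without a parental GC culture keep 1 culture in that group, and their counts are not given. *Mt1* and *M1ap* were called in both, 6.45% of the tumor list and 5.41% of the culture list. In cultures *Mt1* had means of 802 and 3766 CPM in parental cells (DMSO, GC), and 936 and 1103 CPM in GRKO cells, a value of 1.99 (SE 0.26, edgeR adjusted p 0.00585). *M1ap* had 25.4, 188, 15.5 and 18 CPM in the same order, a value of 2.67 (SE 0.24, edgeR adjusted p 0.000552). Tumors and cultures were not tested against each other.

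**Figure D3:**
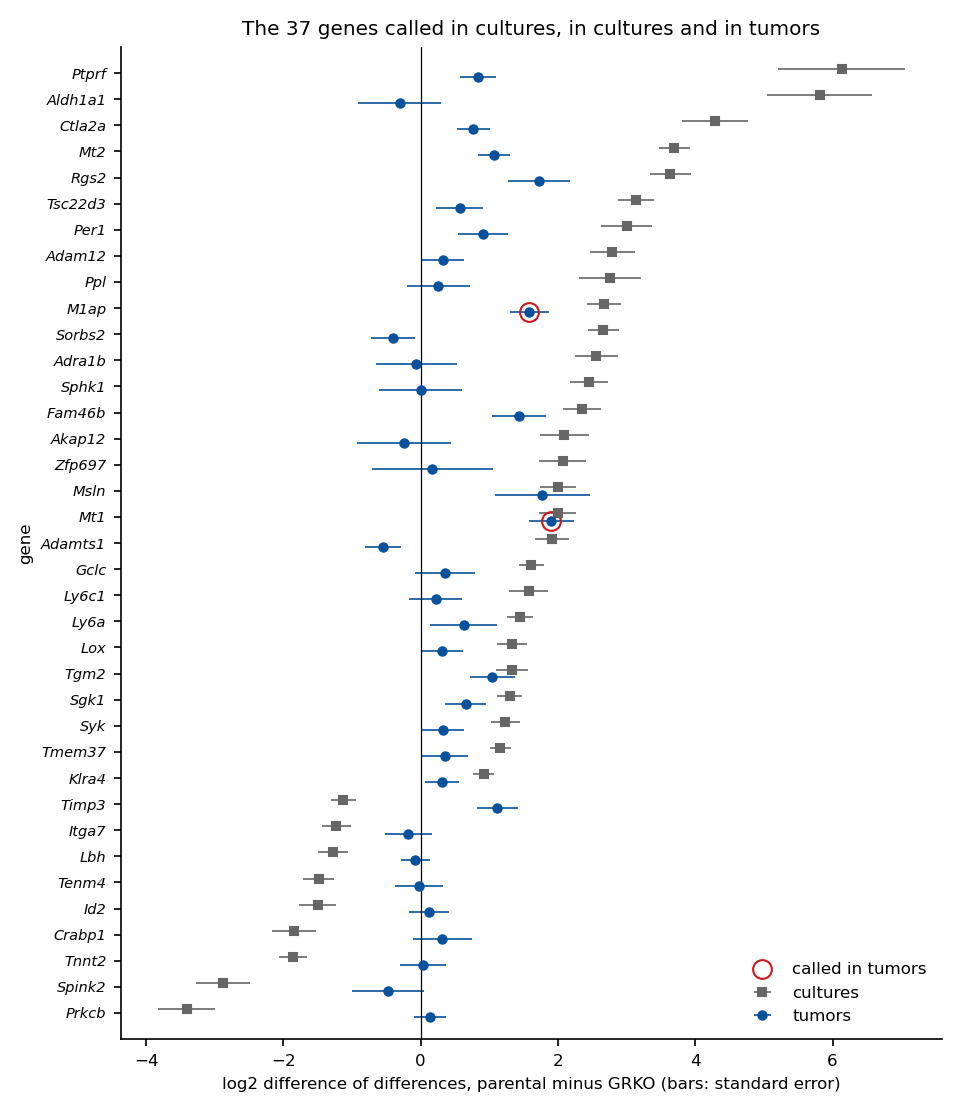
Log2 difference of differences, with standard error bars, of the 37 genes called in cultures, in cultures (grey squares) and tumors (blue circles), with red rings on the genes also called in tumors. Of the 28 genes higher in cultures 23 were positive in tumors (all genes 48.2%), and the rings mark *Mt1* and *M1ap*.

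Of the 31 tumor genes, 23 were tested in cultures, 13 of them with the same sign, and 6 had an unadjusted p under 0.05 there. Among the 6, *Gstm2* had the opposite sign (-1.60, edgeR adjusted p 0.413). Its culture means were 17.9 and 17.3 CPM in parental cells (DMSO, GC) and 0.744 and 2.20 CPM in GRKO cells, so this value rests on the low GRKO levels. Of the 31 genes, 7 were under 1 CPM in every culture. Those included *Trim29*, *Tnnc2*, *Col10a1* and *Sult5a1*, the last at 0 in all 11 cultures. *Ccdc3* had 1.10 and 9.29 CPM in parental cells (DMSO, GC) and was at 0 counts in 5 of the 6 GRKO cultures, so that its fitted value of 1.20 in cultures is no measure of size. *Gadd45g* had culture means of 197, 295, 221 and 261 CPM and a value of 0.34 (SE 0.22, edgeR adjusted p 0.576). *Gadd45a*, *Hes1*, *Klf10* and *Irs1* had culture values of 1.67, 0.67, -0.13 and -0.78 (adjusted p of 0.597, 0.745, 0.934 and 0.554 from edgeR), none called by it. *Gadd45a* had only 1 to 36 counts per culture and an SE of 1.27, so its culture value is no measure of size or direction.

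The 28 genes higher in cultures had a median of 0.35 in tumors. Of them, 11 were positive and 1 (*Adamts1*, -0.54) negative there at an unadjusted p under 0.05 (all genes 9.88% and 10.2%). The 9 genes lower in cultures had a median of 0.03 in tumors, with 4 negative values, 0 of them and 1 positive value (*Timp3*, 1.12) at an unadjusted p under 0.05 from edgeR. *Mt2* and *Tsc22d3*, which edgeR called in cultures and not in tumors, had culture values of 3.70 (SE 0.23, edgeR adjusted p 3.48e-05) and 3.14 (SE 0.27, edgeR adjusted p 0.000332). *Per1* and *Sgk1* had culture values of 3.00 (SE 0.37, edgeR adjusted p 0.00415) and 1.30 (SE 0.18, edgeR adjusted p 0.00927), and *Rgs2*, picked after its values were seen, 3.64 (edgeR adjusted p 0.000332). *Klf9*, *Fkbp5* and *Lrrc32* had culture values of 2.14, 2.72 and -1.16 (adjusted p of 0.0523, 0.102 and 0.576) and were not called by edgeR. For *Lrrc32* the SE was 0.57, with culture means of 19.0 and 5.38 CPM in parental cells (DMSO, GC) and 2.51 and 1.59 CPM in GRKO cells. GRKO cells with DMSO thus had a lower mean than parental cells with GC, and the culture value compares falls from unlike starting levels. *Zbtb16* had 137 and 221 counts in the parental GC cultures and 0 in the other 9, and was not tested, since the filter needs 3 libraries.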

How the data were processed

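RNA of 20 tumors and 11 cultures was read from its 3′ ends. The authors trimmed reads with Trim Galore 0.6.5, checked them with FastQC 0.11.7 and MultiQC 1.4, aligned them with STAR 2.6.1d and deposited integer raw read counts per gene for 39179 genes of Ensembl 75, without normalization. The methods name no strand option for featureCounts and give default parameters unless specified, and its default ignores strand.

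Genes with at least 0.5 CPM in at least 3 libraries of an experiment were kept. In R 4.3.3, edgeR 4.0.16 (on limma 3.58.1) fitted all 4 groups with TMM factors and its quasi-likelihood F test. The pipeline was tested on simulated data. Since parental cells with GC have 2 cultures, a gene found only there is not tested. Summed marker levels were compared as log2(CPM + 1).

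Members, lists and rules were chosen with earlier results of these data known. Named genes were the 15 largest called genes in each direction with a mean of at least 1 CPM in a group, 18 genes of GR and TGF-β biology whatever their values, and the called and most abundant members of each list. Some of them are not reported here. Lists covered GR targets, the study's 25 genes, GR partners, TGF-β ligands and targets, inflammatory, immediate-early, interferon, clock, zinc, stress, hypoxia, cell-cycle, antigen presentation and matrix genes, and markers of 17 cell types.

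Alternatives were DESeq2 1.42.0, no filter on low counts, a filter of at least 10 counts in each library, edgeR with DESeq2's size factors, the replicate number as a block, robust empirical Bayes, genes detected at equal depth as a covariate, a minimum ratio of 2 or none, a pseudocount of 0.1, and leaving out each library. No sample was left out.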

Additional observations from a re-analysis of the deposited data

Results flagged for a closer look

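The drug effect differed between genotypes in 31 genes in tumors and 37 in cultures, by the test of the difference itself.

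Single tumors lay far from the other 4 of their group in 7 of 152 groups tested (4.61%), and chance alone marks about 1 in 20 groups. Summed keratinocyte markers were 12277 CPM in parental control 5, against 5295 to 7078 CPM in its group. Summed macrophage markers were 24273 CPM in GRKO GC 2, against 13931 to 16148 CPM. *Sult5a1* was 3.97 CPM in GRKO GC 4, against 1.27 to 1.52 CPM. *Rcn2* was 60.6 CPM in GRKO GC 5, against 30.5 to 38.2 CPM. *Tssc1* was 72.3 CPM in GRKO control 1, against 45.2 to 51.8 CPM, and 42.8 CPM in GRKO GC 1, against 28.4 to 31.1 CPM. *Cyr61* was 103 CPM in parental GC 4, against 15.4 to 33.9 CPM.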

How the results depend on the processing

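Of 31 genes called in tumors, all 31 were called again by DESeq2 (784 genes), without the low-count filter (49), with at least 10 counts in every library (66), with DESeq2's size factors (40), with robust empirical Bayes (39) and with a minimum ratio of 2 or none (31 each). With the number of genes detected as a covariate 15 genes were called, 13 of them among the 31. Choices made after seeing the data gave 3 genes with the keratinocyte level as a covariate (2 among the 31), 0 by edgeR without the 3 tumors of lowest TMM factor (1335 at an unadjusted p under 0.05; DESeq2 was not run on this subset), and 284 without GRKO control 1 and 4 (all 31 among them). Leaving out 1 tumor gave 0 (without parental control 3 or GRKO control 2) to 1284 genes (without GRKO control 4). In cultures, DESeq2 called 128 genes and the fit without a low-count filter 64. Fits without 1 culture called 22 (without GRKO GC 2) to 43 genes (without GRKO GC 1). This range leaves out the fits without a parental GC culture, which keep 1 culture in that group. The cause was not tested.

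As a replicate block, the tumor number gave 144 genes, all 31 among them. Same-numbered tumors deviated from their groups with a mean correlation of 0.0583 over 30 pairs (-0.543 to 0.415), and 16 of the 30 pairs were over 0.1. Of 20 tumors, 7 correlated best with a tumor of their own number. The numbers were not taken as pairs in the main fit, and whether they mark pairs was not tested.

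Of 2248 values of named genes under alternatives, 1747 kept direction and side of the threshold, 427 lost the call, 17 gained it, 57 changed sign with no call in either fit, and 0 changed sign with a call. Of 825 list medians 24, and of 357 summed marker levels 0, moved by more than the spread between tumors. Parental control 1, at 15528066 reads, cannot separate genes under 0.191 CPM from 0, and the limit reached 0.220 CPM in GRKO control 1.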
